A study of Betula luminifera with 4 samples.

Results

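Phosphate-starved plants of Betula luminifera, a birch tree, gave a root library (root LP) and a shoot library (shoot LP) of small RNAs, and the miRNAs of these organs are compared here. The members are all named rows of the deposited table, with rows of identical mature sequence counted once, which leaves 215 distinct sequences of 221 rows. A read in root LP or shoot LP was listed for 200 of the 215. Both LP groups are clone G49#, raised in tissue culture, moved to sand and watered with a modified MS medium that lacked KH2PO4, its phosphate source, with potassium adjusted by K2SO4. All plants were 2-month-old seedlings when moved, and all had 2 weeks of medium with phosphate and then 2 weeks of deionized water before the treatments began. How long the treatments lasted is not stated in the labels. The root CK and shoot CK libraries come from the same clone with 1.25 mM KH2PO4 and are set beside the LP pair where the organ ratio differed. Shoot RNA was stem and leaf RNA mixed in equal amounts, so a difference between stem and leaf cannot be told apart from one between root and shoot. Each group is 1 library, and the labels do not say how many of the 54 plants of the study it holds, so no difference below has a replicate check, a test or a p-value. In whole organs, fewer cells of a type and less RNA per cell cannot be told apart, and a table of miRNAs offers no marker transcripts to check the organ labels.

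Plant miRNAs are cut from hairpin precursors, usually as 21-nt or 22-nt RNAs, and guide Argonaute proteins to transcripts that match them along nearly their whole length. The 22-nt class is known for starting the production of secondary siRNAs from its targets, and 24-nt small RNAs are known mostly as guides of DNA methylation. Under phosphate starvation miR399 and miR2111 are known as shoot-borne signals that travel to the root, where miR399 lowers PHO2, an enzyme that limits phosphate uptake and transfer to the shoot.

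The sequences that carry the main patterns are printed as deposited (T stands for U), 5′ to 3′, with bases 2 to 8, the seed, in capitals. The first set holds pairs whose first 18 letters are identical but which differ in length, the longer form first, since their organ ratios lay far apart.
miR399a: tGCCAAAGgagaattgccctg
miR399c: tGCCAAAGgagaattgccc
miR7122a: tTATTCAGagaaatcacggttg
miR7122b: tTATTCAGagaaatcacggt
miR167b: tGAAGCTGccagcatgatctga
miR167a: tGAAGCTGccagcatgatctt
miR160a: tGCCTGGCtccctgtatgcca
miR160d: tGCCTGGCtccctgtatgtt
miR403a: tTAGATTCacgcacaaactcg
miR403b: tTAGATTCacgcacaaactt
miR393b: tCCAAAGGgatcgcattgatcc
miR393a: tCCAAAGGgatcgcattgatt

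The second set holds sequences with large organ ratios and high values. The first 5 were lower in root LP and the last 4 were higher there.
miR482b: tCTTCCCTactccgcccatgcc
miR482a: tCTTTCCTagtccacccattcc
miR482c: tCTTTCCTagccctcccattcc
miR408a: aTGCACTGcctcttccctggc
miR319a: tTGGACTGaagggagctccc
miR166a-5p: gGAATGTTgtctggctcgagg
miR169a-3p: gGCAGTCTctttggctagc
miR477-3p: tGAGGCCTttggggagagtgg
miR156b-3p: gCTTACTCtctatctgtcatc

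The distinct sequences hold 101816 reads in root LP and 723599 in shoot LP, so 1 read weighs more in root LP. Levels are the authors' normalized values, in which 1 read is worth 2.73 in root LP and 0.780 in shoot LP. A log2 ratio is root LP over shoot LP after adding 1 to each value, a fold is the plain ratio of the values, and parentheses after a fold hold its 95% counting interval, which covers counting error only. A sequence or family was counted as higher or lower in root LP at 2-fold or more, given a value that reached 10 in at least 1 of the 2 libraries. A value of 10 takes 4 reads in root LP and 13 in shoot LP, so fewer reads sufficed on the root side.

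Most of the sequences that passed the filter differed between organs. Of the 158 that passed, 55 were higher in root LP (34.8%), 60 were lower (38.0%) and 43 lay within 2-fold, with a median log2 ratio of -0.22. The counting interval excluded equality for 50 of the 55 and 52 of the 60. Of the 56 that passed through 1 library alone only 3 lay within 2-fold, since a sequence that passes this way is already high on 1 side. Among the 102 whose values reached 10 in both libraries 29 were higher, 33 lower and 40 within 2-fold. The remaining 57 sequences stayed below 10 in both.

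The scaling sets where this comparison is centred. On the authors' scale the sequences sum to 277919 in root LP and 564526 in shoot LP, and without the miR482 family to 257997 and 353136. Scaling both libraries to the same table total adds 1.02 to each log2 ratio and turns the split to 77 higher and 41 lower, whereas TMM, which trims extreme ratios before scaling, shifts it by -0.33 and gives 44 higher and 67 lower. Of the 55 higher sequences 44 were at least 2-fold apart under the authors' scaling and the 4 others tried, and of the 60 lower ones 40 were. Differences between forms of 1 family, described below, do not depend on the scaling apart from the added 1.

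**Figure D1:**
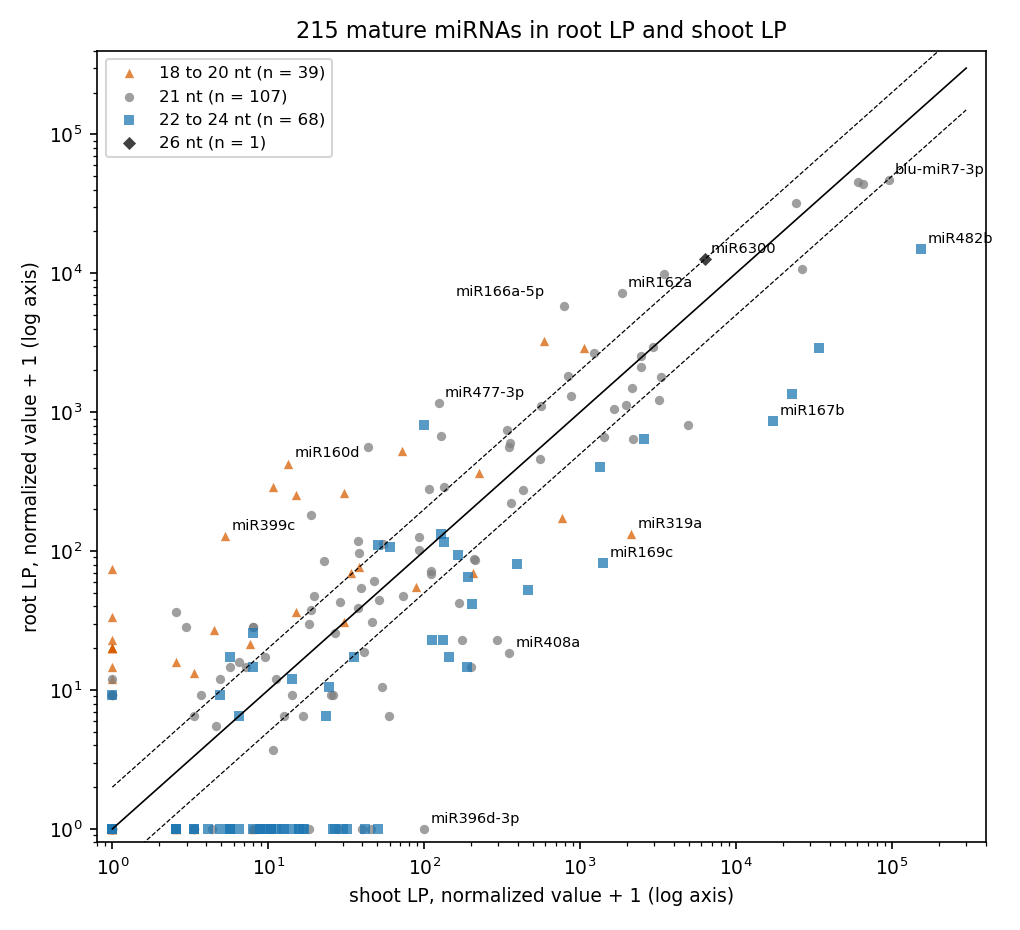
Normalized value + 1 of each of the 215 sequences in root LP (vertical, log axis) and shoot LP (horizontal, log axis), 1 point a sequence, with symbols by length; the solid line marks equal values and the dashed lines a 2-fold difference. Sequences of 18 to 20 nt lie mostly above the upper dashed line, and miR482b and miR167b of 22 nt lie far below the lower one.

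Between 18 and 24 nt, length and organ ratio moved together among sequences measured in both organs. Of the 15 sequences of 18 to 20 nt with values of 10 or more in both libraries, 9 were higher in root LP and 3 lower, with a median log2 ratio of 1.02. The 9 include miR894 and miR5072, whose sequences resemble tRNA pieces. At 21 nt, 18 of 63 were higher and 14 lower, with a median of 0.04. Of the 23 sequences of 22 to 24 nt, 2 were higher and 16 lower, with a median of -2.28. The median thus lay lower in each longer of these 3 groups. The only 26-nt sequence, miR6300, is in none of them and went against this order, with a log2 ratio of 0.996. It held 4.52% of root LP and 1.12% of shoot LP reads.

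With the sequences that passed the filter through 1 library alone, 24 of 30 sequences of 18 to 20 nt were higher and 3 lower, 27 of 85 at 21 nt were higher and 25 lower, and 4 of 42 sequences of 22 to 24 nt were higher and 32 lower. These counts describe the table and carry no further weight, since 4 of the 6 sequences of 18 nt were at 0 in shoot LP and 11 of the 20 of 24 nt were at 0 in root LP. Their ratios, and the medians of 4.10 at 18 nt and -3.68 at 24 nt, rest on the added 1. At 20, 21 and 22 nt, with 18, 85 and 18 sequences, the medians were 1.48, 0.01 and -1.78 in the LP pair. In the CK pair they were -0.23, -0.05 and -1.42, over the 16, 79 and 19 sequences that passed the filter there.

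By reads, 21-nt sequences held 83.9% of root LP and 56.0% of shoot LP. Sequences of 22 nt held 7.94% (exact binomial interval 7.78% to 8.11%) of root LP and 41.2% (41.1% to 41.3%) of shoot LP. The 22-nt miR482 sequences alone made up 6.92% and 37.4% of the reads in that order, and the other 22-nt sequences 1.02% and 3.76%. Sequences of 18 to 20 nt held 3.37% of root LP and 0.944% of shoot LP, against 1.86% of root CK and 3.08% of shoot CK, the opposite side. Among them miR894, whose sequence resembles a tRNA piece, held 1.17% of root LP and 0.103% of shoot LP. The labels give an RNA integrity number above 7.0 for the study and no value per library, and the part of RNA quality or size selection in this pattern was not tested.

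**Figure D2:**
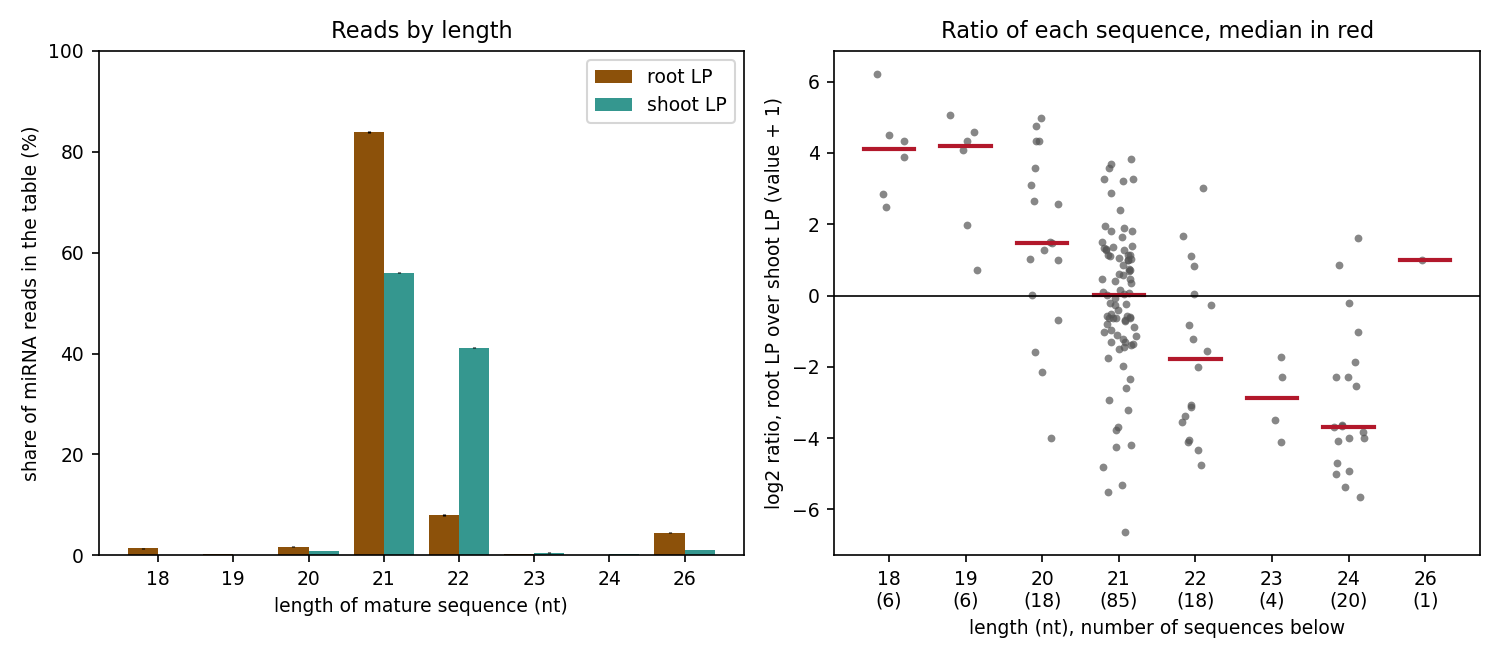
Left, share of the table's reads by length of the mature sequence (nt) in root LP and shoot LP, with exact binomial intervals; right, log2 ratio root LP over shoot LP of each of the 158 sequences that passed the filter, by length, with the median in red. The medians at 20, 21 and 22 nt are 1.48, 0.01 and -1.78, those at 18 and 24 nt rest largely on sequences at 0 in 1 library, and 22-nt sequences hold 7.94% of root LP and 41.2% of shoot LP reads.

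Forms of 1 family that share their first 18 letters, and hence their seed, showed the same order. This set was formed after the values were seen. It has 11 pairs of a shortest and a longest form, of which 10 had reads of both forms in both libraries. In each of these 10 the longer form had the lower root over shoot ratio, with log2 differences, longer minus shorter, between -6.57 and -1.71 and a median of -3.98. Only the pairs of miR7122, miR160 and miR156 hold whole reads alone in the LP libraries, with differences of -5.10, -3.86 and -1.71. Each other pair has a form with fractional reads, and how these were divided between similar forms is not given. The other pair, miR319e and miR319a, was undecided: miR319e had 0 reads in root LP and 20.4 in shoot LP, and the order turned with the pseudocount, from -0.08 with 1 added to 2.53 with 10 added. In the CK pair the longer form had the lower ratio in 10 of the 11, with a median difference of -1.06, and the exception was miR319.

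The widest gap was in miR399, which keeps PHO2 in check. The 19-nt miR399c had 46.5 reads in root LP and 5.50 in shoot LP, 29.6-fold (11.7 to 78.4) higher in root LP. The 21-nt miR399a had 15.2 reads in root LP and 212.8 in shoot LP, 4.01-fold (2.41 to 7.38) lower in root LP. Both hold fractional reads, and the table does not show with which rows those reads were shared.

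The miR167 family, which targets the auxin response factors ARF6 and ARF8, changed its main form with the organ. The 22-nt miR167b stood at 861 in root LP and 17398 in shoot LP, 20.2-fold (18.05 to 22.6) lower in root LP. The 21-nt miR167a stood at 2099 in root LP and 2462 in shoot LP, within 2-fold. Of the reads of both forms, miR167b held 29.1% (26.4% to 31.9%) in root LP and 87.6% (87.2% to 88.0%) in shoot LP. The forms part only in their last letters, as the printed sequences show.

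In miR160, which targets another group of auxin response factors, the 20-nt forms stood about as far apart between organs as miR399c. miR160d was at 426 in root LP and 12.5 in shoot LP, 34.1-fold (20.4 to 61.2) higher, and miR160b at 289 and 9.75, 29.7-fold (16.0 to 55.3) higher. The 21-nt miR160a, the main form in both organs, was at 2680 in root LP and 1230 in shoot LP, 2.18-fold (2.01 to 2.36) higher. miR160c, which differs before its last letters, was listed at 0 reads in root LP and 57.5 in shoot LP.

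The auxin receptor regulator miR393 split in the same way. The 21-nt miR393a was at 180 in root LP and 17.9 in shoot LP, 10.04-fold (6.16 to 16.9) higher, while the 22-nt miR393b was at 132 and 127. In miR403, which targets AGO2, the 21-nt main form miR403a was at 807 in root LP and 4902 in shoot LP, 6.08-fold (5.40 to 6.84) lower, while the 20-nt miR403b had 7.50 reads in root LP and 8.50 in shoot LP, 3.09-fold (1.04 to 9.08) higher. In miR7122, known in other plants as a trigger of secondary siRNAs, the 20-nt miR7122b was at 259 in root LP and 29.6 in shoot LP, 8.75-fold (5.95 to 13.1) higher, and the 22-nt miR7122a at 639 and 2587, 4.05-fold (3.55 to 4.64) lower. Each of these families thus held a shorter form on the root side of its longer form.

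The last pairs are in miR396, miR172, miR156 and miR169. The 22-nt miR396b made up 0.0507% of the reads of miR396a and miR396b in root LP and 0.594% in shoot LP. The 21-nt miR172d held 81.8% (62.5% to 92.5%) of its pair with the 20-nt miR172b/c in root LP and 98.6% (95.04% to 99.8%) in shoot LP, from 30.2 reads in root LP. The 23-nt miR156i held 0.181% of its pair with miR156g in root LP and 0.597% in shoot LP. The 23-nt miR169c held 72.8% (57.1% to 85.8%) of its pair with the 20-nt miR169b in root LP and 97.9% (97.2% to 98.5%) in shoot LP.

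**Figure D3:**
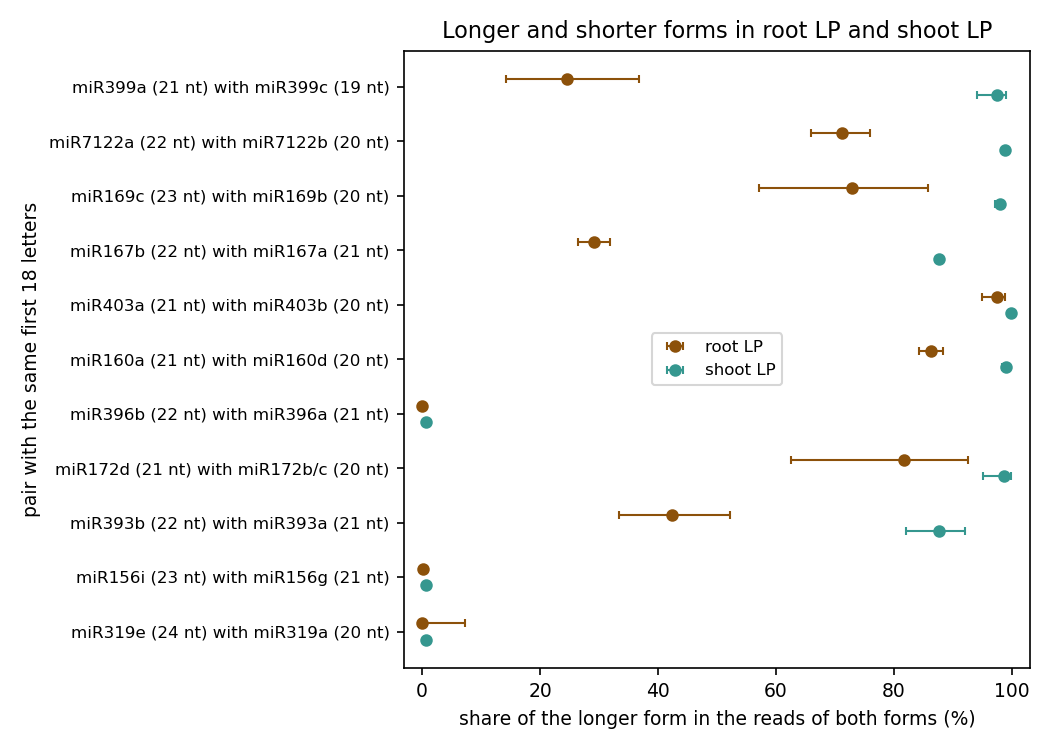
Share (%) of the longer form in the reads of both forms, for the 11 pairs with the same first 18 letters, in root LP and shoot LP, with exact binomial intervals. The root LP point lies left of the shoot LP point in each pair, by most in miR399a (24.6% in root LP and 97.5% in shoot LP) and miR167b (29.1% and 87.6%), though for miR319e the root LP interval (0 to 7.25%) covers the shoot LP share of 0.743%.

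Opposite arms of 1 precursor also differed between organs. A precursor gives a guide strand and a less abundant partner, and the share of the partner in the reads of both arms does not depend on the scaling. Here the less abundant arm is the one with the smaller sum of normalized values over root LP and shoot LP. Of 24 arm combinations in which each arm had a value of at least 10 in 1 library, the less abundant arm had the higher root over shoot ratio in 15 and the lower one in 9, and 10 lay 2 or more apart on the log2 scale. Of the 19 combinations with reads of both arms in both libraries, it was higher in 12 and lower in 7, and 9 lay that far apart.

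The miR166 family restrains HD-ZIP III factors, which set organ polarity and vascular pattern. miR166a, its main form, was at 45658 in root LP and 60486 in shoot LP, within 2-fold. Its partner miR166a-5p was at 5770 in root LP and 789.5 in shoot LP, 7.31-fold (6.78 to 7.89) higher. The partner made up 11.2% (10.8% to 11.7%) of the reads of both in root LP and 1.29% (1.21% to 1.37%) in shoot LP. The table places both on transcript TRINITY_DN25866_c2_g1, positions 20 to 218, plus strand, and lists miR166a-5p on the 3′ arm despite its name. The gap between the arms was 3.27 on the log2 scale in the LP pair and 3.36 in the CK pair.

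Both arms of miR169, a family that targets NF-YA transcription factors, were listed as 19-nt forms on transcript TRINITY_DN28896_c6_g4, positions 32 to 289, plus strand. miR169a-3p had 93 reads in root LP and 18 in shoot LP, 18.1-fold (10.8 to 31.8) higher, and miR169a had 133 and 285 reads, within 2-fold. miR169a-3p held 41.2% (34.7% to 47.9%) of the reads of both in root LP and 5.94% (3.56% to 9.23%) in shoot LP.

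The precursors of miR156, which restrains SPL factors and so delays the change to the adult phase, gave partners of opposite preference. miR156b-3p was at 562 in root LP and 42.9 in shoot LP, 13.1-fold (9.69 to 17.98) higher, and miR156a-3p, of 23 nt, at 400 in root LP and 1335 in shoot LP, 3.34-fold (2.81 to 3.96) lower. Their common guide, the 20-nt miR156a/b/c, was at 2922 in root LP and 1057 in shoot LP, 2.76-fold (2.55 to 2.996) higher. The 2 partners thus stand on either side of the guide they share.

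In miR159, which targets GAMYB factors, the guide miR159a was at 10678 in root LP and 26370 in shoot LP, 2.47-fold (2.39 to 2.55) lower, and its partner miR159a-5p at 1829 and 834, 2.19-fold (1.99 to 2.42) higher. miR167b stands with miR167a-3p, which was at 748 in root LP and 341 in shoot LP, 2.19-fold (1.88 to 2.56) higher, a gap of 5.47 between the arms. Which form miR167a-3p belongs with is not certain, since miR167a is placed on the same transcript, within the positions of this pair. At its own positions, 63 to 151, miR167a stands with miR167b-3p, which had 10 reads in root LP and 9 in shoot LP. The log2 ratio of miR167b-3p was 1.82, a gap of 2.05 to miR167a. miR167a had a log2 ratio of -0.23 and miR167a-3p one of 1.13, so beside miR167a the gap would be smaller. The widest gap, 7.24 at miR482b, rests on a partner with 5 reads in root LP and 0 in shoot LP. That of blu-miR10 rests on 7 reads of both arms in root LP.

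**Figure D4:**
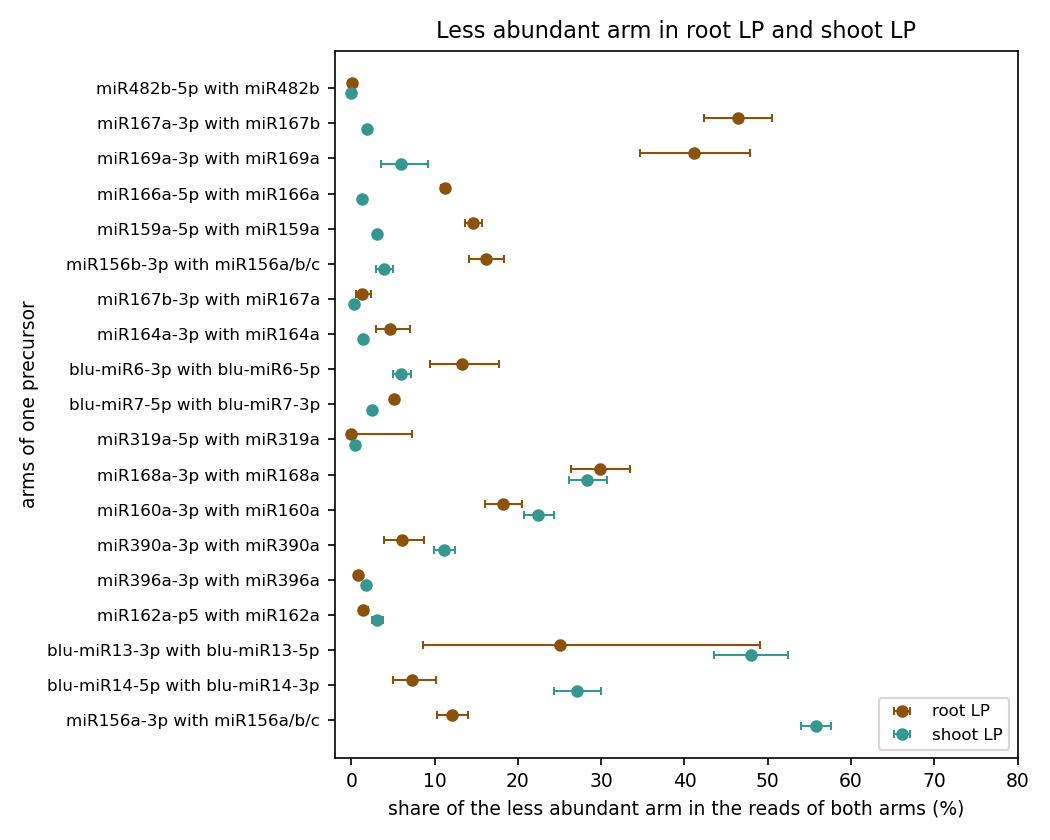
Share (%) of the less abundant arm in the reads of both arms in root LP and shoot LP, with exact binomial intervals, for the 19 arm combinations with at least 20 reads of both arms in root LP. The root LP share is above the shoot LP share for miR166a-5p (11.2% in root LP and 1.29% in shoot LP) and below it for miR156a-3p (12.04% and 55.8%). The less abundant arm is that with the smaller sum over both libraries, so miR156a-3p can be the more abundant arm in shoot LP. Its guide miR156a/b/c is also counted with miR156b-3p.

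Summed by family, 48 of 56 families passed the filter, of which 19 were higher in root LP (39.6%), 13 were lower (27.1%) and 16 lay within 2-fold. The median log2 ratio of the 48 was -0.10. Of the 41 families with values of 10 or more in both libraries, 12 were higher, 13 lower and 16 within 2-fold, so the excess of higher families came from those that passed through root LP alone. Under every scaling tried, 14 of the 19 and 7 of the 13 were at least 2-fold apart. Families lower in root LP under every scaling were miR408, miR319, miR482, miR1515, miR403, miR167 and miR394.

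In the immune receptor and MYB list 1 of 3 measured families was lower and none higher, with a median log2 ratio of -0.71. Over all 48 families 27.1% were lower and 39.6% higher. miR482, a 22-nt trigger of secondary siRNAs from immune receptor genes, was the most abundant family of shoot LP. It stood at 19922 in root LP and 211390 in shoot LP, 10.6-fold (10.4 to 10.9) lower, and held 7.17% of root LP and 37.4% of shoot LP reads. Its main form miR482b was at 14866 in root LP and 153732 in shoot LP, 10.3-fold (10.07 to 10.6) lower. miR482c was 17.1-fold (15.7 to 18.8) lower and miR482a 11.7-fold (11.1 to 12.5) lower. The 21-nt miR482h, which the table lists on the 5′ arm, went the other way, at 678 in root LP and 127 in shoot LP, 5.33-fold (4.37 to 6.55) higher. The MYB regulators miR858 and miR828 lay within 2-fold, miR858 at 221 in root LP and 361 in shoot LP and miR828 with 6 reads in root LP and 24 in shoot LP, and the direction of both turned with the scaling.

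Of the 4 silencing families measured, 1 was higher in root LP and 2 were lower, with a median log2 ratio of -0.98. miR162, which targets the miRNA-cutting enzyme DCL1, was at 7324 in root LP and 1908 in shoot LP, 3.84-fold (3.63 to 4.06) higher. miR168, which targets AGO1, was at 1867 in root LP and 1225 in shoot LP, within 2-fold. miR1515, known in other plants to target DCL2, had 19 reads in root LP and 593 in shoot LP, 8.92-fold (5.66 to 14.9) lower. miR403 was at 835 in root LP and 4933 in shoot LP, 5.91-fold (5.26 to 6.65) lower. In the LP pair the regulators of AGO2 and DCL2 thus stood on the shoot side and that of DCL1 on the root side. Of all 48 families past the filter, 39.6% were higher and 27.1% lower. In the CK pair miR1515 and miR403 lay within 2-fold, at log2 ratios of 0.07 and -0.65, and miR162 was 4.70-fold higher in root.

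Among the 9 development families none was higher in root LP and 4 were lower, with a median log2 ratio of -0.55. The shares over all 48 families were 39.6% higher and 27.1% lower. miR319, which restrains TCP factors of leaf growth, was at 138 in root LP and 2228 in shoot LP, 16.2-fold (12.1 to 21.5) lower. miR394, a regulator of the meristem F-box gene LCR, was at 182 in root LP and 823 in shoot LP, 4.53-fold (3.51 to 5.85) lower. miR164, which targets NAC genes of organ boundaries, was 2.55-fold (2.32 to 2.81) lower and miR159 2.18-fold (2.11 to 2.25) lower, and both came within 2-fold when scaled to the table total. Without sequences of fractional reads miR164 had a log2 ratio of -0.09. miR396, which targets growth-regulating factors, was at 32655 in root LP and 24905 in shoot LP, and miR166 at 61437 and 64793. miR156 was at 50906 in root LP and 71499 in shoot LP, miR171, which targets GRAS genes, at 4113 and 6021, and miR172, which targets AP2-type genes, at 163 and 179. These 5 lay within 2-fold, and the direction of miR156, miR166, miR171 and miR172 turned with the scaling.

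Members of miR171 spread more widely than their sum. The 22-nt miR171i-5p was at 808 in root LP and 99.1 in shoot LP, 8.15-fold (6.60 to 10.1) higher, and miR171f at 280.2 and 106.6, 2.63-fold (2.02 to 3.42) higher. miR171g had 5 reads in root LP and 255 in shoot LP, 14.6-fold (6.17 to 45.3) lower, and miR171e had 8 and 372.5 reads, 13.3-fold (6.69 to 31.1) lower. The main form miR171a was at 1782 in root LP and 3309 in shoot LP.

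The copper-responsive list, families that spare copper by lowering copper proteins, had 2 of 3 measured families lower in root LP, against 27.1% of all 48 families. The median log2 ratio of the list was -1.42. miR408, which targets plantacyanin and laccases, had 6.40 reads in root LP and 448.6 in shoot LP, 20.03-fold (9.75 to 58.6) lower. miR397, which targets laccases, was at 871 in root LP and 2336 in shoot LP, 2.68-fold (2.39 to 3.02) lower, but within 2-fold when scaled to the table total. Its main form miR397a was 3.39-fold (2.96 to 3.88) lower, while miR397d was at 76.4 in root LP and 37.4 in shoot LP. miR398, a regulator of copper/zinc superoxide dismutases, stood at 147 in root LP and 290 in shoot LP, just under 2-fold, and its direction turned with the scaling.

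The 2 measured phosphate-starvation families stood close together or on few reads. miR399 was at 629 in root LP and 727 in shoot LP, a log2 ratio of -0.21 whose direction turned with the scaling. Its main form miR399b was at 460 in root LP and 557 in shoot LP. miR2111, whose target in legumes is an F-box gene, had 10 reads in root LP and 12 in shoot LP, 2.92-fold (1.13 to 7.36) higher, with a log2 ratio of 0.95 when 10 was added to each value. In the nutrient list of miR395 and miR169, miR395, which targets ATP sulfurylase and a sulfate transporter, had 23 reads in root LP and 58.5 in shoot LP, within 2-fold. Its 19-nt miR395a had 12 reads in root LP and 0 in shoot LP, against 0 in root CK and 28 in shoot CK, the opposite side. Its 21-nt miR395b had 11 reads in root LP and 58.5 in shoot LP. miR169 was at 727 in root LP and 1672 in shoot LP, 2.30-fold (2.02 to 2.62) lower, a sum carried by miR169c at 80.5 and 1406. Scaled to the table total, miR169 lay within 2-fold.

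Of the 4 auxin families, 2 were higher in root LP and 1 lower, with a median log2 ratio of 0.19. These counts are near the shares over all 48 families, 39.6% higher and 27.1% lower. miR160 was at 3991 in root LP and 1653 in shoot LP, 2.41-fold (2.26 to 2.58) higher, and miR393 at 317 and 149, 2.13-fold (1.67 to 2.69) higher. Both came under 2-fold with TMM. The call for miR393 also ended with rows as deposited, at a log2 ratio of 0.70, and with its most abundant sequence alone, at 0.05. miR167 was at 3821 in root LP and 20571 in shoot LP, 5.38-fold (5.10 to 5.68) lower, but at a log2 ratio of -0.04 without sequences of fractional reads, which leaves out miR167b. miR390, which starts the trans-acting siRNAs that restrain further auxin response factors, was at 1130 in root LP and 1848 in shoot LP, within 2-fold, and its direction turned with the scaling.

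Of the 5 less studied families measured, 3 were higher in root LP and 1 lower, with a median log2 ratio of 1.10. Among all 48 families 39.6% were higher and 27.1% lower. miR477 was at 1193 in root LP and 160 in shoot LP, 7.46-fold (6.30 to 8.85) higher. It was carried by miR477-3p, at 1155 in root LP and 123 in shoot LP, while miR477-5p was at 38.2 and 36.7. miR1511 was at 153 in root LP and 38.2 in shoot LP, 3.999-fold (2.68 to 5.99) higher. miR7122 was at 1007 in root LP and 2666 in shoot LP, 2.65-fold (2.38 to 2.95) lower, but within 2-fold when scaled to the table total. miR2950 was 2.16-fold (1.69 to 2.78) higher and came under 2-fold with TMM. miR530 had 5 reads in root LP and 20 in shoot LP, within 2-fold, and its direction turned with the scaling.

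Of the 5 families listed as miRNAs whose sequences resemble tRNA pieces, 3 were higher in root LP and none lower, with a median log2 ratio of 1.49. For all 48 families the shares were 39.6% higher and 27.1% lower. The 18-nt miR894 was at 3265 in root LP and 584 in shoot LP, 5.59-fold (5.10 to 6.14) higher, and the 18-nt miR5072 at 521 and 71.0, 7.34-fold (5.69 to 9.53) higher. miR8175 had 27.5 reads in root LP and 33.5 in shoot LP, 2.87-fold (1.68 to 4.90) higher. The 26-nt miR6300 was at 12570 in root LP and 6300 in shoot LP, just under 2-fold, and the 21-nt miR6478 at 1490 and 2155, whose direction turned with the scaling.

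**Figure D5:**
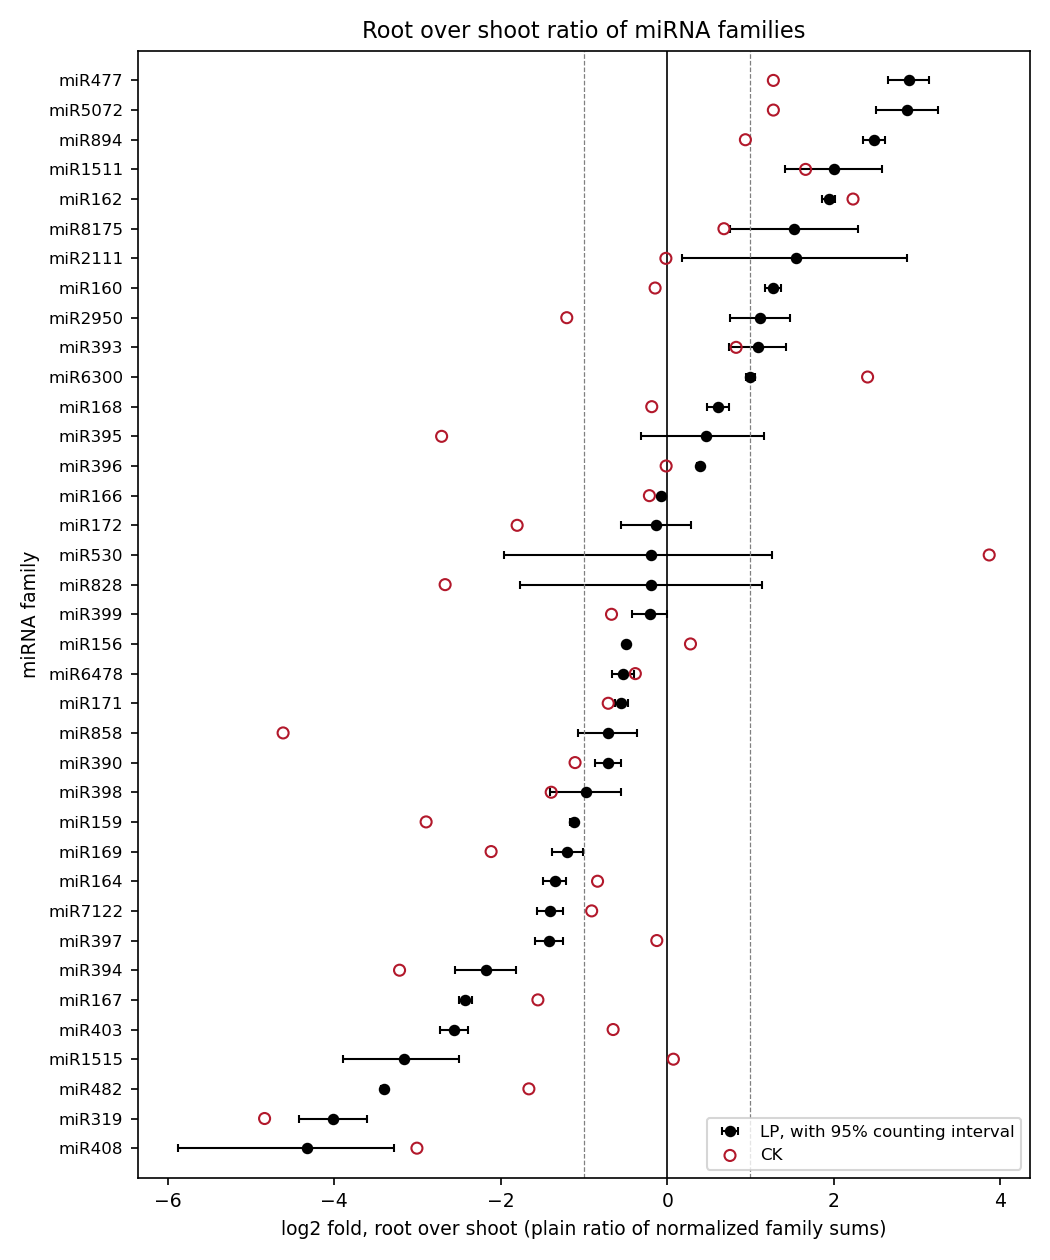
Log2 fold, root over shoot, as the plain ratio of normalized family sums, for 37 families; filled points are the LP pair with 95% counting intervals and open points the CK pair, and dashed lines mark 2-fold. miR408, miR319 and miR482 lie lowest in the LP pair and miR477 highest, while miR530 and miR858 lie far from their CK points.

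Predicted birch miRNAs, whose names start with blu, stood mainly on the shoot side, above all those of 24 nt. Of 59, 32 passed the filter, of which 4 were higher in root LP and 21 lower, with a median log2 ratio of -1.43. For the 126 sequences with known names that passed, 51 were higher and 39 lower, with a median of 0.21. Of the 19 predicted sequences of 24 nt that passed, 15 began with A and 10 had 0 reads in root LP, so that they passed through shoot LP alone. Among predicted sequences with values of 10 or more in both libraries, 5 of 6 of 24 nt were lower and none higher, with a median of -2.29. For the 7 of other lengths, 3 were lower, none higher and 4 within 2-fold, with a median of 0.04. Of the 89 known sequences at that level, 29 were higher and 25 lower, with a median of 0.01.

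blu-miR7-3p, the most abundant predicted sequence, was at 46675 in root LP and 95266 in shoot LP, 2.04-fold (2.01 to 2.07) lower, and held 16.8% of root LP and 16.9% of shoot LP reads. Scaled to the table total it lay within 2-fold. The 24-nt blu-miR13-3p had 5 reads in root LP and 240 in shoot LP, 13.7-fold (5.80 to 42.6) lower, and its partner blu-miR13-5p 15 and 260 reads. The 24-nt blu-miR8-5p had 8 reads in root LP and 169 in shoot LP, and blu-miR8-3p had 8 reads in root LP and 142.5 in shoot LP.

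Some sequences were read in 1 of the LP libraries alone. Of those past the filter, 10 had 0 reads in shoot LP, and 9 of these were 18 to 20 nt long. A further 19 had 0 reads in root LP, and 14 of these were 22 to 24 nt long. Of all 158 past the filter, 30 were 18 to 20 nt and 42 were 22 to 24 nt long. A sequence passed with fewer reads in root LP than in shoot LP. The table seldom lists 1 read, at 5 of 705 values above 0 in the 4 libraries, so a 0 can hide a read and no fold is given. The 18-nt miR171b had 27 reads in root LP, the 19-nt miR395a 12, the 18-nt blu-miR32-3p 8 and the 20-nt miR166c 7, each with 0 in shoot LP. miR396d-3p had 127 reads in shoot LP, blu-miR36-5p 63.5, miR160c 57.5 and blu-miR34-3p 52, each with 0 in root LP. These sequences passed through 1 library alone and are part of the counts by length given above.

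The organ ratios of the LP pair were set beside those of the CK pair, which come from other libraries. Of 142 sequences that passed the filter under CK, 37 were higher in root (26.1%) and 54 lower (38.0%), and of 42 families 8 were higher (19.0%) and 15 lower (35.7%). Across the 134 sequences past both filters, which are no independent replicates, the log2 ratios had a Pearson correlation of 0.70 and a Spearman correlation of 0.72, and 105 had the same sign. Of the 55 sequences higher in root LP, 39 passed under CK, of which 26 were higher in root there, 10 within 2-fold and 3 lower. Of the 60 lower ones, 54 passed under CK, with 36 lower, 18 within 2-fold and none higher.

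Families whose organ ratio lay 4-fold or more apart between the pairs, of the 42 past both filters, were 6, a limit set after the values were seen. miR858 was at 221 in root LP and 361 in shoot LP, against 72.5 in root CK and 1777 in shoot CK. miR395 was at 62.8 in root LP and 45.6 in shoot LP, against 18.4 in root CK and 120.4 in shoot CK. miR2950 was at 288 in root LP and 133 in shoot LP, against 195 in root CK and 450.5 in shoot CK. These 3 had the higher root over shoot ratio in the LP pair, as had miR828 on 6 reads in root LP. miR1515 was at 51.9 in root LP and 463 in shoot LP, against 93.0 in root CK and 88.4 in shoot CK. miR530 was at 13.6 in root LP and 15.6 in shoot LP, against 543 in root CK and 37.2 in shoot CK. These 2 had the lower ratio in the LP pair. The other scalings move the difference between the pairs by -0.89 to 0.30 on the log2 scale, so which families pass the limit depends on the scaling. With TMM the difference of miR2950 fell to 1.42, under 4-fold, and that of miR828, 2.33 on the authors' scale, would also fall under the limit. Families that would pass it with TMM were miR403, miR482, miR6300, miR408 and miR397. On the authors' scale these stood at -1.91, -1.75, -1.41, -1.34 and -1.30 in that order. The difference was not tested, since each ratio rests on 1 library an organ.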

How the data were processed

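Small RNA libraries were made with a TruSeq small RNA kit and read as 36-nt single reads, per the labels' protocols. The deposited raw columns hold estimated counts of reads per mature miRNA, fractional for 58 distinct sequences in the LP libraries. The deposited norm columns hold a normalized signal: in each library 1 constant turns raw into norm values, 2.73 in root LP and 0.780 in shoot LP, as the values show. The sources used here do not give how the authors chose the constants, their aligner, filters or miRBase version. Blank lines (2) were not analysed here, and every column of values had a sample.

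Rows with identical sequence were collapsed, and families are sums over the number after miR. Exact conditional and binomial intervals (Clopper-Pearson, 95%) used raw reads rounded to whole numbers. PCR reads are not independent molecules, so intervals cover counting error only. Ratios, intervals and the rule for calls were tested on simulated data. edgeR 4.0.16 (R 4.3.3) gave TMM factors. All else used Python 3.11.15 with numpy 2.4.6, scipy 1.17.1, pandas 2.3.3 and matplotlib 3.10.9. The alternatives were 4 other scalings, a pseudocount of 10, no filter or a minimum of 50, rows as deposited, no fractional sequences, and each family's most abundant sequence alone.

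The members, family lists and naming rule were chosen with earlier results of these data known. The rule names the 10 most abundant families, list families with a value of 10, and of sequences with a value of 100 the 10 with the highest and the 10 with the lowest ratio, up to 6 families with opposed members, up to 6 arm pairs 2 or more apart, up to 4 sequences a side read in 1 library, and sequences with opposite LP and CK ratios.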

Additional observations from a re-analysis of the deposited data

Results flagged for a closer look

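On the authors' scaling 1 family stood 2-fold or more on opposite sides in the LP and the CK pair. miR2950a had a log2 ratio of 1.10 in the LP pair and -1.23 in the CK pair, a difference of 2.33, and the miR2950 family sum differed by 2.31. Its level in root LP was 288 against 133 in shoot LP, from 105.5 and 171 reads, and each ratio rests on 1 library an organ, so the difference was not tested. With TMM neither ratio reached 2-fold, at 0.78 in the LP pair and -0.64 in the CK pair, a difference of 1.42.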

How the results depend on the processing

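Without the filter on low values 92 sequences were lower in root LP, in place of 60. With a minimum of 50, 29 sequences were higher, 34 were lower and 11 families were higher. Scaling to the table total, with or without the tRNA-like families, left 7 families lower in place of 13. Without sequences of fractional reads 35 sequences and 7 families were lower, and the log2 ratios of miR169 (1.28), miR397 (0.55) and miR8175 (-1.74) turned round, a setting that leaves the forms with fractional reads out of each sum; any further cause was not tested. It also ended the lower calls of miR167 (-0.04) and miR164 (-0.09) and took miR166 to 2.85 and miR395 to 5.08. The values of miR8175 and miR395 in this setting rest on the added 1. miR8175 kept no reads in root LP, and miR395 kept miR395a alone, with 12 reads in root LP and 0 in shoot LP. The other counts stayed within 1.5 times: sequences higher lay between 39 and 78 and families higher between 14 and 24 under the settings not named for them. No paired analysis was possible because each group is 1 library and the labels give no replicate numbers. The library with fewer reads of a sequence limits its ratio, which is shoot LP for miR160d (156 reads in root LP and 16 in shoot LP) and root LP for miR408a (6.40 and 448.6). Among settings chosen after seeing the data, adding 10 left the longer form lower in 10 of 11 length pairs.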
